A study of Mus musculus with 185 samples.

Results

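Cells of the infarcted mouse heart labelled negative for Postn (periostin) were compared, gene by gene, with resident cells of uninjured hearts, to ask which genes differ after infarction in cells that do not carry this myofibroblast marker. The comparison holds 36 of the 185 single cells of the series. Members were taken by label and by capture. They are 24 cells labelled activated and negative for Postn, CD31 and CD45, and 12 cells labelled resident and negative for the same markers. The labels rest on the sort, on the eGFP reporter as seen by microscopy and on Postn mRNA, and no other measured value was used to choose the cells.

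All cells have the strain label C57BL/6 (backcross N=6), an age of about 5 months and the tissue label heart. The methods describe Postn MCM/+; R26-eGFP and Tcf21 MCM/+; R26-eGFP mice fed tamoxifen chow, in which a tamoxifen-inducible Cre (MerCreMer) placed in the Postn or Tcf21 gene removes a stop cassette and so marks expressing cells and their progeny with eGFP. Infarction was made by permanent ligation of the left coronary artery. Injured or uninjured regions of the left ventricle were dissected, live cells without surface CD31 (endothelial) and CD45 (leukocyte) were sorted, and single cells were captured, amplified by SMARTer chemistry and sequenced.

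The 24 activated cells are not labelled as lineage-traced and share a capture with 27 Postn lineage-traced cells of the infarct. The 12 resident cells share another capture with 17 Tcf21 lineage-traced cells of uninjured hearts, a class that was used beside them. The study's text also speaks of sham hearts for the control cells, and 1 legend takes its untraced controls from heart tissue remote from the infarct; a legend for these classes takes the resident cells from hearts without infarction. In the knock-in mice the Cre takes the place of 1 Postn or Tcf21 allele, and a cell without eGFP can be one in which the recombinase did not act. The study's legends place the Postn-traced and untraced infarct cells in Postn MCM/+; R26-eGFP mice a week after infarction and give 3 mice per group, but no label ties a cell to a mouse. Infarcted and uninjured cells came from different captures. The resident capture holds Tcf21-traced cells, which need the Tcf21 knock-in, so the mouse line and its tamoxifen schedule may differ as well. Infarction, capture and mouse line therefore cannot be told apart.

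Resident cardiac fibroblasts keep up the collagen network between cardiomyocytes and express the transcription factor Tcf21 and the receptor Pdgfra. After infarction many of them turn into myofibroblasts, which switch on periostin, fibrillar collagens and contractile proteins, and close the wound with a scar. Fibroblasts that lie in or beside the scar without this programme are still exposed to dying myocytes, inflammatory cytokines and a changed matrix.

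Levels are given as log2(TPM+1), where TPM is a transcript's abundance scaled to the same total in every cell. Differences are between class means on that scale, activated minus resident unless said otherwise, and the SD is between cells. Detection means a level above 5 TPM in that cell. Each class counts as 1 sample, so there is no replicate check, no test and no p-value. A gene is called past the rule when its class means differ by more than 2 log2 units and at least 50% of cells in the class with the higher mean detect it. The methods give an average read depth, but not that of each cell. The number of detected genes ranged from 1809 to 4881 (median 2342) in the activated cells and from 1674 to 2770 (median 2091.5) in the resident cells.

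Most cells of both classes expressed fibroblast markers, which their labels do not name. At least 3 of 10 fibroblast markers were detected in all 24 activated cells and in 11 of 12 resident cells. Decorin (Dcn), a small proteoglycan of the collagen matrix, had a mean of 13.85 ± 0.60 in activated and 13.77 ± 1.09 in resident cells. Postn was 1.44 ± 1.09 and 1.66 ± 0.97, and lay above 5 TPM in 3 cells of each class in spite of the negative label, against a mean of 11.81 in the Postn-traced cells. Ptprc, which encodes CD45, was listed at 0 in all 24 activated cells, and Pecam1, which encodes CD31, was detected in 2 of them and in no resident cell.

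A pair of cells stood apart by markers of a further cell type and were looked at separately from here on. A resident cell expressed 9 of 10 myeloid markers, among them Cd14 at 12.95, Lyz2 at 12.34, Tyrobp at 11.51 and Ptprc at 9.25. Their summed level was 24223.8 TPM, while no other resident cell had a myeloid marker above 5 TPM. In the same cell the MHC class II gene H2-Aa stood at 14.54, Dcn at 10.75 and Gsn at 3.77, and Col1a1, Pdgfra and Dpt were listed at 0. An activated cell, the one with 4881 genes, expressed 5 of 6 epicardial markers, with Krt19 at 9.83, Msln at 9.29 and Wt1 at 8.46, while Tcf21 and Lrrn4 were at 0. It also expressed 9 of 10 fibroblast markers, with Dcn at 12.68 and Col1a2 at 10.73. None of these 5 epicardial markers was detected in the other 23 activated cells. The counts and the gene lists are also given without them.

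**Figure D1:**
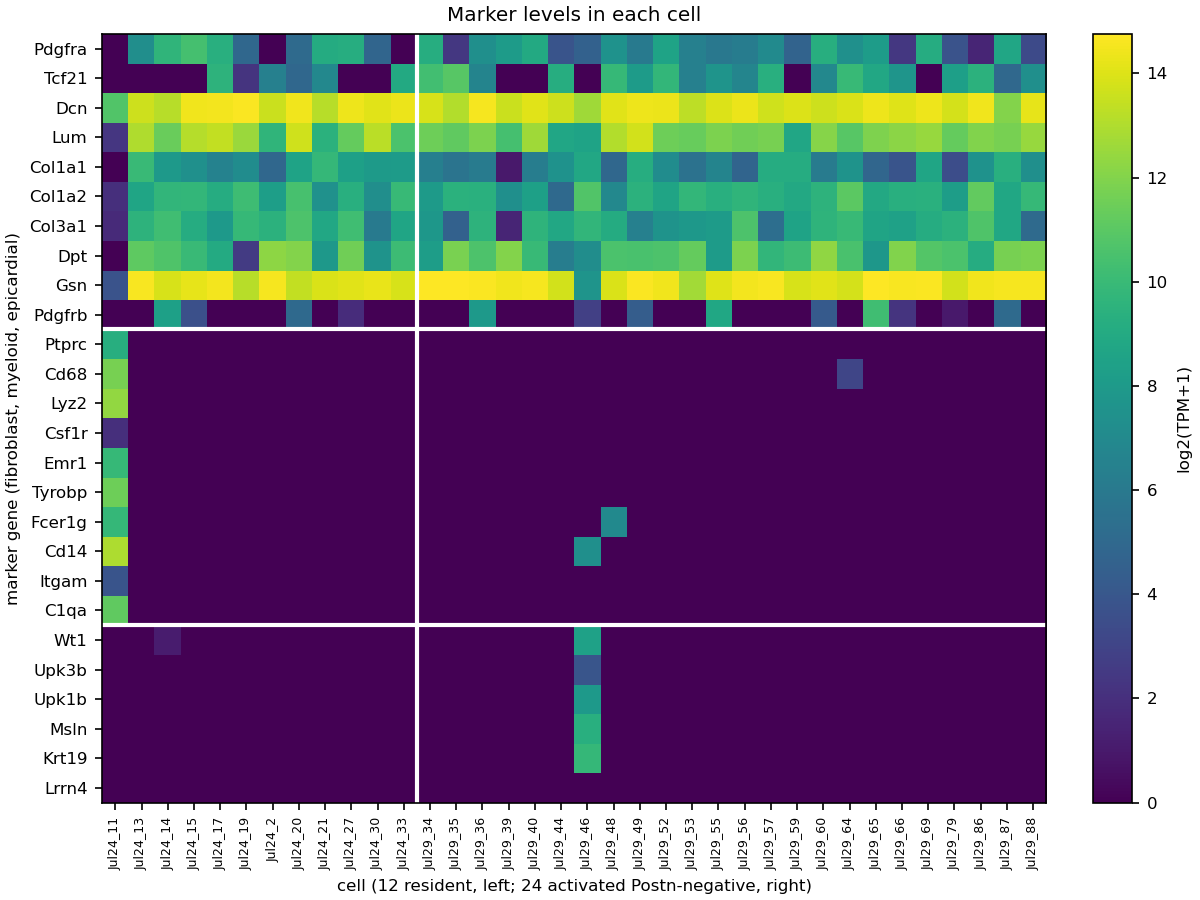
Level of 10 fibroblast, 10 myeloid and 6 epicardial marker genes (vertical axis) in each of the 12 resident and 24 activated Postn-negative cells (horizontal axis), with log2(TPM+1) as colour. Fibroblast markers such as Dcn fill nearly every column, while the myeloid block is filled in 1 resident cell, with single markers in 3 activated cells, and the epicardial block in 1 activated cell.

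Other cell types left few traces. Of the marker lists for endothelial, lymphoid, pericyte, smooth muscle, Schwann and red blood cells, none had 3 or more members detected in any of the 36 cells. The highest mean among their members was that of the smooth muscle gene Smtn in activated cells (2.37 ± 3.02, and 0.96 ± 2.67 in resident cells) and of the endothelial gene Tek in resident cells (1.83). Endothelial Eng followed in activated cells (2.19 ± 3.0, detected in 8 of 24, against 0.78 ± 2.15 and 1 of 12), and averaged 2.74 in the Tcf21-traced resident cells. An activated cell with 8 of 10 fibroblast markers had Eng at 9.40 and Pecam1 at 8.36. The defining smooth muscle genes Myh11 and Cnn1, endothelial Kdr and pericyte Rgs5 were detected in no cell. Of the 6 smooth muscle genes, however, 4 were detected in at least 1 activated cell and 2 in at least 1 resident cell. Acta2 and Des were detected in activated but in no resident cells, and Smtn in 9 of 24 and 1 of 12. Pericyte Abcc9 was detected in 1 activated cell, at 6.00, and in 1 resident cell, at 8.98. A single activated cell had 4 cardiomyocyte transcripts above 5 TPM, at a summed level of 149.9 TPM. Lymphoid Cd3d was detected in no cell, and haemoglobin Hba-a2 was detected in 1 activated and 2 resident cells.

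Across the transcriptome, more genes were higher than lower in the infarct cells. Of 11766 genes detected in at least 1 cell, 246 (2.09%) were past the rule upwards and 67 (0.569%) downwards. The surface antigen gene Ly6a, the metallothionein gene Mt2, the endoplasmic reticulum folding gene P4hb and the MHC class I heavy chain gene H2-D1 were among the higher ones. The apolipoprotein gene Apoe led the lower ones. The median difference was 2.62 among the higher genes, -2.44 among the lower genes and 0.19 over all genes tested, of which 60.9% had a difference above 0. For none of these genes, in either direction, did the cells of both classes fall into separate ranges.

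These counts have to be read against how far resident classes of a single capture lie apart. By the same rule, a comparison added after the data were seen, the 12 resident cells differed from the 17 Tcf21-traced resident cells by 88 genes upwards (0.804% of 10952) and 149 genes downwards (1.36%). Without the cell with myeloid markers these were 104 genes (0.969%) and 138 genes (1.29%). Differences of this size thus arose between resident cells of uninjured hearts as well. When the 17 Tcf21-traced cells took the place of the 12, activated cells were past the rule upwards for 146 genes (1.23% of 11894) and downwards for 56 (0.471%), and 70 of the 246 and 9 of the 67 genes kept a difference of more than 2 in the same direction. Both comparisons use the same 24 activated cells. Of the 53 higher and 23 lower genes that a rule set beforehand names here, 20 and 5 kept such a difference. They are Erdr1, Mt2, Ly6c1, Pla1a, Fam120a, Arl4a, Tuba1c, H2-D1, Ackr3, C7, Prdx6, Errfi1, Igfbp6, Tcf21, P4hb, Ifi205, Myc, Adamts5, Ssr2 and Psma2, and downwards Apoe, Hist2h2aa2, Smoc2, Ldha and Tomm7. The rest of the 76 were past the size of 2 only against the 12. For Tcf21, the knock-in allele that the Tcf21-traced cells carry may bear on the difference.

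Without the pair of cells that stood apart, 204 genes were higher and 90 lower, and 187 of the 246 and 56 of the 67 were among them. Of the same 76 genes, 6 no longer differed by more than 2, namely Cyr61 (1.81), Mmp23 (1.997), Psmb2 (1.77), Stat3 (1.91), Nid1 (1.51) and Psme1 (-1.93). The balance moved more when gene number was restricted, which leaves out both of these cells as well. With only the 21 activated and 9 resident cells that lay in the range of 1809 to 2770 genes, which both classes span, 159 genes were higher and 179 lower, so that 47% of the genes past the rule were higher in place of 78.6%. Of the main calls, 133 and 55 were among these. This restriction was chosen after seeing the data, and the part of gene number in the surplus of higher genes was not tested.

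The scale of the class mean also decides many calls. A mean of log2 values follows how many cells express a gene, and a mean of TPM follows its most abundant cells. When TPM was averaged over cells before taking the log, 122 genes were higher and 48 lower, and 97 of the 246 and 23 of the 67 were among them. Of the same 53 higher and 23 lower genes, 34 and 12 then differed by 2 or less, or turned. Apoe was at -2.02 and Ly6a at 0.97 on that scale, H2-D1 at 1.84, P4hb at 1.87, Tcf21 at 1.76 and Pla1a at 1.60. Ly6c1 (5.90), Fndc3a (6.13), Arl4a (5.78), C7 (5.67), Mt2 (3.80) and Erdr1 (3.65) were more than 2 higher on both scales, and Arhgdib (-7.66) and Hist2h2aa2 (-7.03) more than 2 lower.

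**Figure D2:**
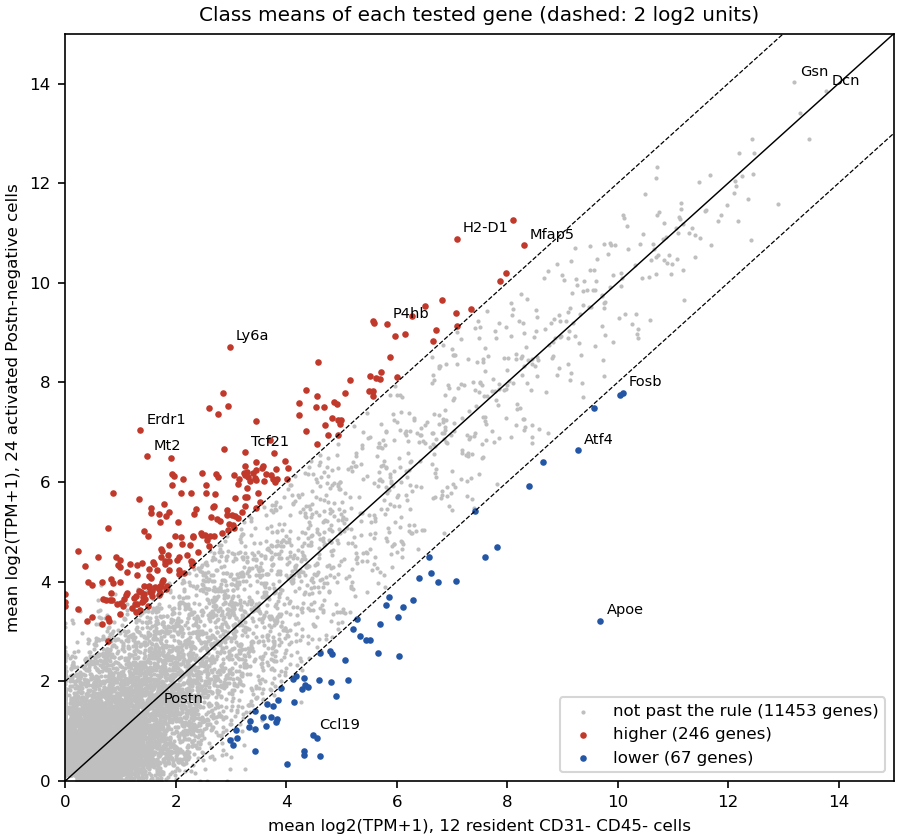
Mean log2(TPM+1) of each of the 11766 tested genes in the 12 resident cells (horizontal axis) and the 24 activated Postn-negative cells (vertical axis), with dashed lines at a difference of 2. The 246 higher genes (red) and 67 lower genes (blue) lie outside the dashed lines, and Apoe lies farthest from the diagonal.

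Apoe, which encodes a lipoprotein ligand made by many tissue cells, showed the largest difference of any gene past the rule on the scale of mean log2 values, though not when TPM was averaged first. Its level ran from 3.48 to 13.60 in the resident cells, with a median of 10.66, and from 0 to 13.65 in the activated cells, with a median of 0. It was detected in all 12 resident cells (exact 95% Clopper-Pearson interval from 73.5%) and in 9 of 24 activated cells (37.5%, 18.8% to 59.4%). These intervals cover counting error only. The ranges overlapped, since some activated cells reached the resident level, but 17 of 24 lay below every resident cell. The mean was 3.22 ± 4.47 against 9.68 ± 3.36, a difference of -6.47, and -6.36 without the pair of cells that stood apart. The Tcf21-traced resident cells of the same capture averaged 8.44, and the 3 other infarct classes shown lay between 4.80 for activated Tcf21-traced and 5.15 for Postn-traced cells.

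Smoc2, a matricellular protein typical of resident fibroblasts, was also lower. It ranged from 4.49 to 12.59 (median 11.37) in resident and from 0 to 12.57 (median 9.21) in activated cells, so the classes overlapped over most of their range. The means were 10.05 ± 2.67 and 7.74 ± 4.03, a difference of -2.31. The Tcf21-traced resident cells had a mean of 10.30 and the Postn-traced cells of 4.08, which places the Postn-negative infarct cells between both.

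The remaining genes with the largest falls encode proteins of various roles. Histone transcripts Hist2h2aa2 (-4.10) and H2A (-3.80) were in this group, and their copies are so alike that reads may be shared between them. So were the BMP-binding protein gene Bmper (-3.72), the mRNA export factor Nxf1 (-3.70), Arhgdib (-3.68) and the tubulin gene Tubb4b (-3.54). The chemokine gene Ccl19 differed by -3.57, and was detected in 3 of 24 activated and 7 of 12 resident cells. For Ldha, which makes lactate from pyruvate, the difference was -3.12, for the lipolysis inhibitor G0s2 -3.10, for the mitochondrial import subunit Tomm7 -3.10 and for the interleukin 11 receptor gene Il11ra1 -3.06. The non-coding host transcript Snhg1 (-3.21) and a pair of transcripts without a gene name complete the 15.

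Of these 15, 4 were more than 2 lower against the Tcf21-traced resident cells too: Apoe, Hist2h2aa2 (-3.46), Ldha (-2.09) and Tomm7 (-2.03). Tubb4b had no such difference there, at 0.14. Ldha averaged 8.25 in the Postn-traced cells of the infarct capture, 7.82 ± 4.54 in the 12 resident and 4.70 ± 4.27 in the activated Postn-negative cells.

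Ly6a, which encodes the surface antigen Sca-1, showed the largest difference upwards of mean log2 values, but was not past the size of 2 when TPM was averaged first. It ranged from 0 to 12.82 in resident cells, with a median of 0, and from 0 to 11.91 in activated cells, with a median of 9.85. It was detected in 21 of 24 activated cells (87.5%, 67.6% to 97.3%) and in 4 of 12 resident cells (33.3%, 9.92% to 65.1%). The means were 8.72 ± 3.50 and 2.98 ± 4.55, a difference of 5.74. The Tcf21-traced cells of the resident capture averaged 8.22, close to the activated class, so that the gene set the 12 resident cells apart from both. Ly6c1, of the same family, averaged 5.77 ± 5.26 in activated, 0.86 ± 2.26 in resident and 3.10 in Tcf21-traced resident cells, and 1.38 in the Postn-traced cells.

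Other large rises held against both resident classes. Mt2, a metallothionein that binds zinc and copper, was at a median of 0 in resident cells (highest 9.27) and of 7.82 in activated cells (0 to 12.08). It was detected in 3 of 12 and 18 of 24 cells, and its mean was 5.03 higher than in the 12 resident and 4.60 higher than in the 17 Tcf21-traced cells. Its neighbour Mt1, chosen after its values were seen, averaged 9.77 ± 4.46 and 8.25 ± 4.08, and was not past the rule. The metallothioneins are short and alike, so their split of reads is uncertain.

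Erdr1 ranged from 0 to 9.84 (median 7.75) in activated cells and from 0 to 7.92 (median 0) in resident cells, a difference of 5.69, and of 4.56 against the Tcf21-traced cells. It lies in a repeated region, and its reads may be shared with near-identical copies. Pla1a, a phospholipase that acts on phosphatidylserine, had means of 6.49 ± 4.30 and 1.91 ± 3.87, with 2.58 in Tcf21-traced resident cells. In the Postn-traced cells of the same infarct capture it averaged 1.47, so the activated Postn-negative cells stood above all 5 other classes shown. Arl4a, a small GTPase, was likewise highest in them, at 5.07 ± 4.22 against 0.77 ± 1.82 in resident and 0.74 in Postn-traced cells. The tubulin gene Tuba1c differed by 4.23 and by 4.06 against the Tcf21-traced cells, but by only 1.42 from the 12 when TPM was averaged first.

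In contrast, Prr13 (4.93), Hn1 (4.88), Enc1 (4.59), Fndc3a (4.38), the tropomyosin gene Tpm1 (4.32) and the cargo receptor gene Surf4 (4.16) were past the rule against the 12 resident cells but less than 2 higher than the Tcf21-traced cells. Fndc3a was detected in 17 of 24 activated and 0 of 12 resident cells. The exact Clopper-Pearson interval of the latter count reaches 26.5%, for counting error alone. Fam120a differed by 4.57, and by 2.46 against the Tcf21-traced cells, but by only 1.42 from the 12 when TPM was averaged first. A transcript without a gene name, at 4.01, is the last of the 15, of which 7 in all were more than 2 higher against both resident classes.

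**Figure D3:**
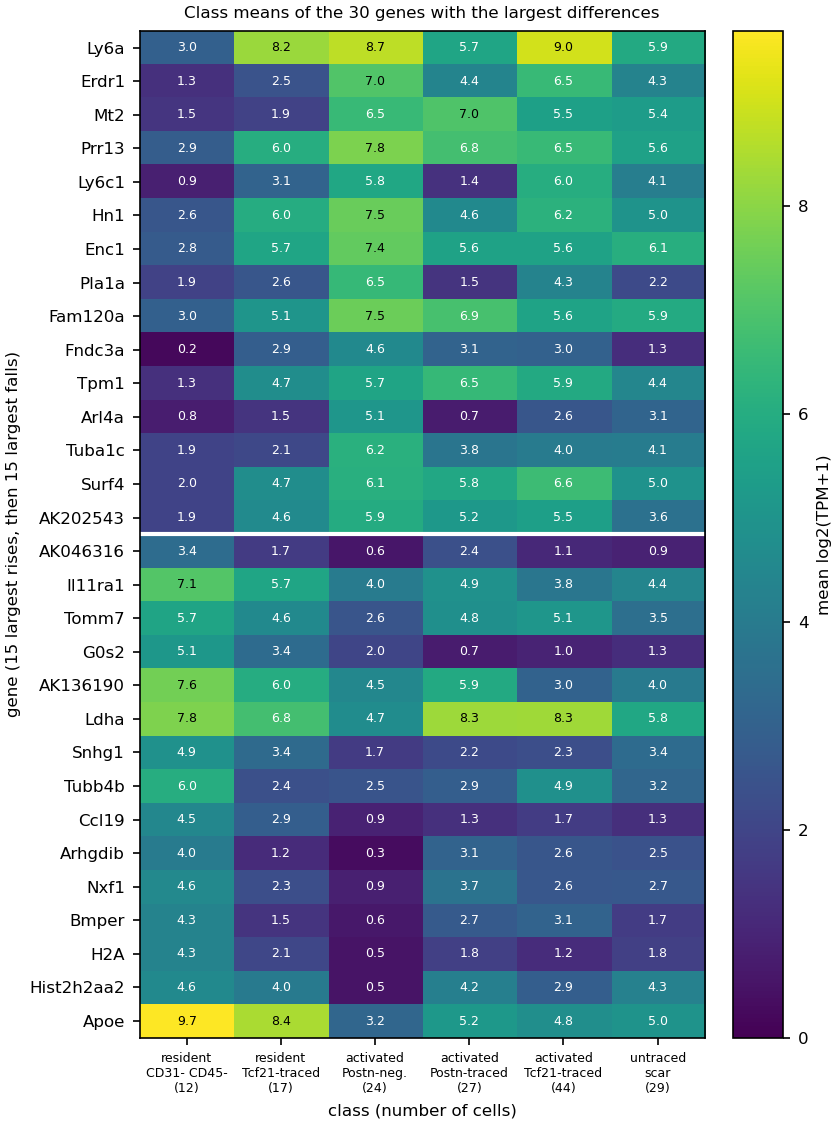
Mean log2(TPM+1), as colour and number, of the 15 genes with the largest rises and the 15 with the largest falls (vertical axis) in the 2 resident and 4 infarct classes (horizontal axis, number of cells in brackets). Ly6a is at 3.0 in the 12 resident cells and at 8.2 in the 17 Tcf21-traced ones, while Apoe is high in both resident classes and low in the activated Postn-negative cells.

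H2-D1, a heavy chain of classical MHC class I that presents peptides to T cells, was the most even of the higher genes. It lay between 8.77 and 12.35 (median 10.88) in the activated cells and between 0 and 11.82 (median 7.71) in the resident cells. All 24 activated cells had it above 5 TPM, as had 11 of 12 resident cells, and 7 resident cells lay below every activated cell. The means were 10.89 ± 0.90 and 7.08 ± 3.36, a difference of 3.80, or 3.58 without the pair of cells that stood apart. The level was nearer to the resident one in the other classes shown, at 7.13 in Tcf21-traced resident, 7.58 in Postn-traced, 8.36 in activated Tcf21-traced and 7.40 in untraced scar cells.

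The rest of the antigen presentation list did not share this. Of 14 genes tested 1 was higher and 0 lower, with a median difference of -0.32, and of 0.04 without the pair of cells that stood apart. Beta-2 microglobulin (B2m), the partner of every class I heavy chain, had means of 10.45 ± 1.15 and 10.83 ± 1.22, and H2-K1 of 7.98 ± 2.09 and 8.10 ± 3.75. Class I heavy chains are near-identical over long stretches, and how reads were divided among H2-D1, H2-K1 and the H2-Q genes is uncertain. Of 28 interferon-stimulated genes tested, Ifi205 (2.97) and Ifi27l2a (2.84) were higher and none was lower, where 2.09% and 0.569% of all genes were. Their median difference was 0.30, and -0.0028 without the pair of cells that stood apart. Ifi27l2a was 1.64 higher than in the Tcf21-traced cells. Ifi205 stood at 8.93 ± 3.30 in the activated Postn-negative cells and at 3.83 in the Postn-traced cells.

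Protein folding and export from the endoplasmic reticulum (ER) was the list with the highest median difference among the 28 lists, at 0.92 against 0.19 for all genes. Of its 30 members 7 were higher and 1 was lower, where 2.09% and 0.569% of all genes were, and 25 had a difference above 0, as had 7170 of the 11766 genes tested. P4hb, protein disulfide isomerase and a subunit of the collagen prolyl hydroxylase, ranged from 5.84 to 11.15 (median 9.37) in activated and from 0 to 9.49 (median 6.63) in resident cells, and 10 activated cells lay above every resident cell. Its mean was 9.16 ± 1.44 against 5.82 ± 3.24, a difference of 3.34, and the Postn-traced cells had a similar mean of 8.94. The translocon-associated subunits Ssr2 (2.81) and Ssr3 (2.65), the secreted ER protein Manf (2.81) and the lectin chaperone Calr (2.48) were higher as well. Against the Tcf21-traced cells P4hb (3.27) and Ssr2 (4.05) stayed more than 2 higher, while Manf (1.91), Ssr3 (1.32) and Calr (1.06) did not. The COPII coat protein gene Sec24d (2.39, and 0.93 there) and Hsp90b1 (2.13), chosen after their values were seen, complete the 7. Hsp90b1 averaged 9.78 in the Tcf21-traced resident cells, above the activated mean of 9.47.

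The transcription factor Atf4, which is translated when the ER or amino acid supply is stressed, went the other way. It was at 9.28 ± 1.40 in resident and 6.64 ± 4.24 in activated cells, but at 5.19 in Tcf21-traced resident cells, against which the difference was 1.45. Hspa5, the main ER chaperone, was not past the rule, at 8.89 ± 2.75 in activated and 10.37 ± 1.02 in resident cells. Against the Tcf21-traced cells the list's median was 0.82, and without the pair of cells that stood apart 0.71. When TPM was averaged over cells before taking the log, the median difference of ER folding and secretory genes was 0.29, below the 0.49 of all genes, so that the position of the list depends on the scale of the mean.

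ER chaperone genes are known for a shared promoter element, spelled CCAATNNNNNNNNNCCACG, and the promoters of 3 list members are shown because they hold it and differ in direction. The element was searched on both strands of windows of 300 bases around gene starts, and was chosen after the values of the list were seen. It was found in 39 of 32851 windows (0.119%), and in 6 of the 26 list members that have a window (Hspa5, Hsp90b1, Calr, Canx, Pdia6 and Creld2). The former count is of windows and the latter of genes. Since the element is known from ER chaperone genes, these counts are not a test. Of the 5 higher members with a window 2 hold it. The sequences run 5′ to 3′ on the strand of the gene in build GRCm38.p6, at chr8:84846882-84847181 (minus strand) for Calr, chr10:86705395-86705694 (minus strand) for Hsp90b1 and chr2:34771840-34772139 (plus strand) for Hspa5, with each match in capitals, which in Calr and in the later match of Hsp90b1 reads on the opposite strand.
Calr: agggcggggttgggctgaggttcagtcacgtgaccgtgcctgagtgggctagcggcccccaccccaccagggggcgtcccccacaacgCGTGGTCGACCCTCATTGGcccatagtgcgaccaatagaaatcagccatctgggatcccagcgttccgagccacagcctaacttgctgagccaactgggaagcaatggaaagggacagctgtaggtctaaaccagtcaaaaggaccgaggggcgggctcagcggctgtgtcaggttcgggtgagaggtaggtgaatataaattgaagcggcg
Hsp90b1: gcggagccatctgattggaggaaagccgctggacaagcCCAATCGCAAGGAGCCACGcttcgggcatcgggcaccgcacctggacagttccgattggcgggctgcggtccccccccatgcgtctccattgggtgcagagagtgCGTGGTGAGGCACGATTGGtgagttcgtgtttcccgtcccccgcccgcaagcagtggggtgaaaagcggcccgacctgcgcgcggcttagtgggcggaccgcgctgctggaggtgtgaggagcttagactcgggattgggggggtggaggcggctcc
Hspa5: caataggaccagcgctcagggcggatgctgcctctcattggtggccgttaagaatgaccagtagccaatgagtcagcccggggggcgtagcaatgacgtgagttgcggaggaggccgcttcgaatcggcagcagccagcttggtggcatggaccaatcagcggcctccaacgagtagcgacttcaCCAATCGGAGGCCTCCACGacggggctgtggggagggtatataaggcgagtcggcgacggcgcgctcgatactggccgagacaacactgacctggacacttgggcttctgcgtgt
A match describes these letters only, and Hspa5 holds the element with a difference of -1.49 while Calr and Hsp90b1 hold it with 2.48 and 2.13.

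**Figure D4:**
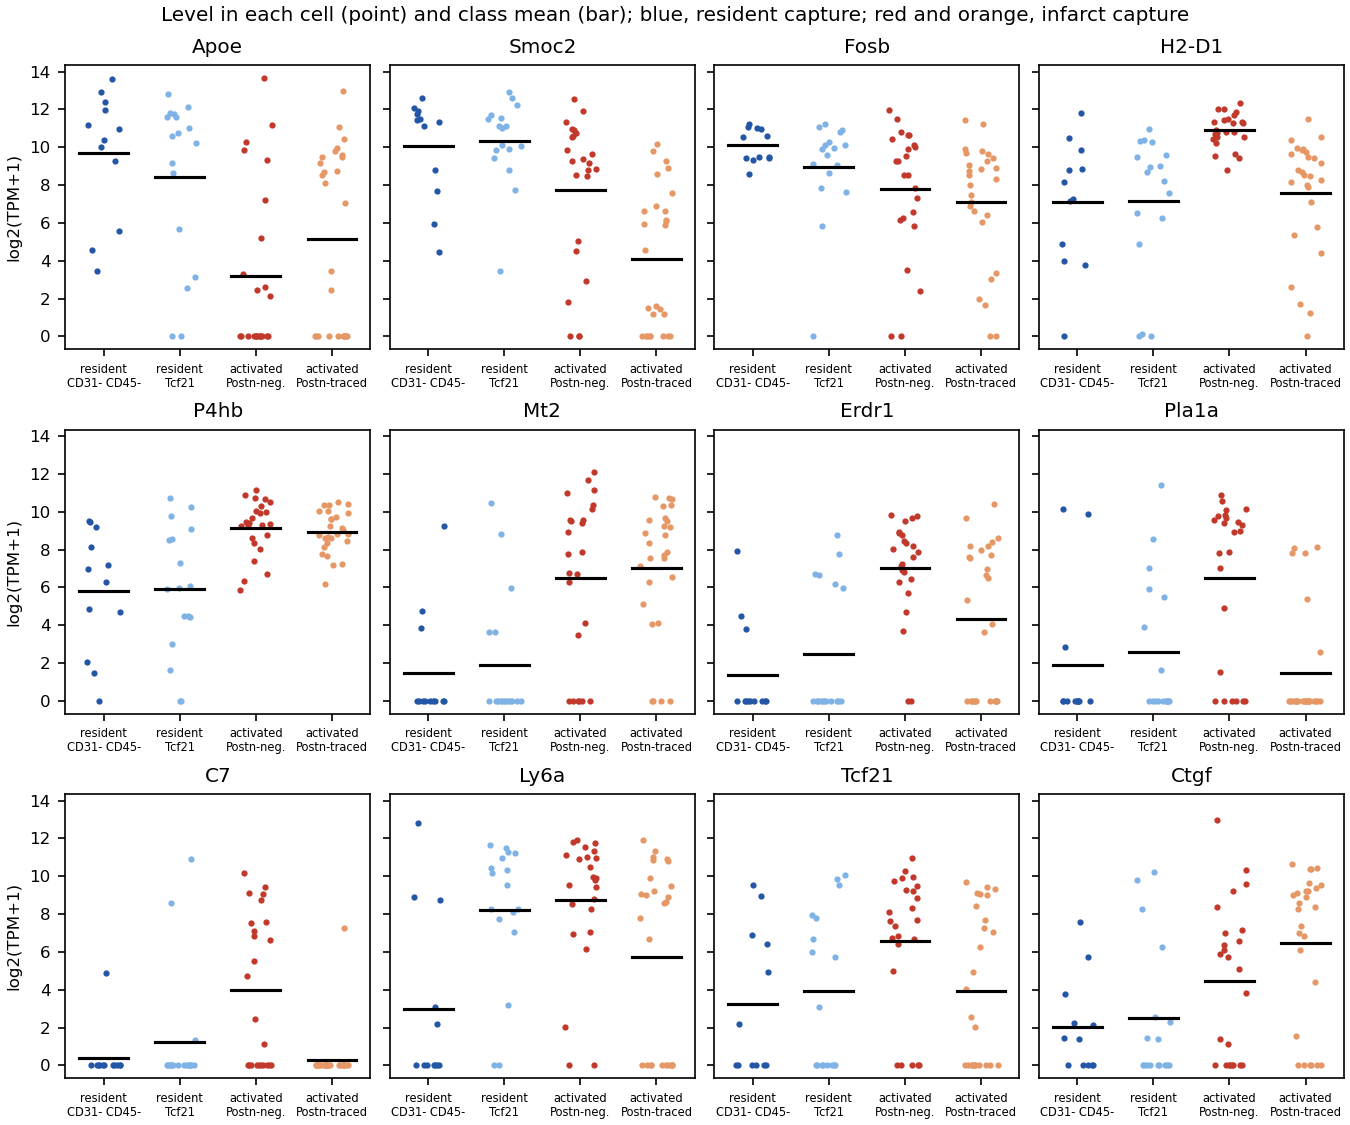
Level of 12 genes in each cell (point) with the class mean (bar), as log2(TPM+1), in the 2 resident classes (blue) and in the activated Postn-negative (red) and Postn-traced (orange) cells. The lowest of the 24 red points is at 8.77 for H2-D1 and at 5.84 for P4hb, while Apoe, Mt2, Pla1a and C7 each have red points at 0 beside others above 8.

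Immediate early genes, which cells switch on within minutes of a stimulus, had a negative median against the 12 resident cells but not against the Tcf21-traced ones. Of 25 tested 2 were higher and 2 lower, where 2.09% and 0.569% of all genes were, and the median difference was -0.51 against these cells and 0.15 against the Tcf21-traced ones. Fosb, an AP-1 subunit, lay between 8.56 and 11.23 (median 10.01) in the resident cells and between 0 and 11.99 (median 8.90) in the activated cells, of which 12 lay below every resident cell. The difference of means was -2.30, and -1.15 against the Tcf21-traced cells. Atf3 differed by -2.47, while Myc (2.95) and the CCN family gene Cyr61 (2.25) were higher. Fos and Egr1, chosen after their values were seen, were high in both classes, with Fos at 10.87 ± 2.85 and 12.41 ± 1.06 and Egr1 at 11.58 ± 3.01 and 12.90 ± 0.47. Of 13 heat shock genes none was past the rule, and their median difference was -0.26, but 0.44 against the Tcf21-traced cells.

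Genes that mark resident and adventitial fibroblasts were found in the infarct cells as well. Of 31 tested 5 were higher (Ly6a, Ly6c1, Mgst1, Ackr3 and Tcf21) and 2 lower (Smoc2 and Entpd2, the latter chosen after its values were seen, at -2.23), where 2.09% and 0.569% of all genes were, with a median difference of 0.80. Ly6a (0.50) and Mgst1 (1.09) were not more than 2 higher than in the Tcf21-traced cells. That median was 0.38 without the pair of cells that stood apart, 0.02 against the Tcf21-traced cells and -0.25 in the cells of shared gene number. Tcf21 itself was detected in 19 of 24 activated and 5 of 12 resident cells, with levels from 0 to 10.95 (median 7.66) and from 0 to 9.53 (median 1.10). The means were 6.60 ± 3.73 and 3.25 ± 3.85, with 3.93 in the cells of the Tcf21 lineage from uninjured hearts, 3.92 in Postn-traced cells and 1.52 in untraced scar cells. The Tcf21-traced cells carry the knock-in in place of 1 Tcf21 allele. The 12 resident cells were set apart from them by the Tcf21 reporter and may carry it too. The legends place the activated Postn-negative cells in Postn MCM/+ mice, so that selection and genotype may bear on this gene against both resident classes. The chemokine scavenging receptor gene Ackr3 was 3.72 higher, and 2.58 higher than in the Tcf21-traced cells.

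Gelsolin (Gsn), an actin-severing protein and the most abundant fibroblast marker of the activated cells, averaged 14.03 ± 1.45 in activated and 13.19 ± 3.0 in resident cells, against 8.42 in Postn-traced cells. The difference between the first pair of means, 0.84, was 0.26 without the cells that stood apart. Set against the Postn-traced cells of the same capture, 29 of the 31 members had a higher mean in the Postn-negative cells. Their median difference was 2.68 beside -0.28 for all genes, of which the share with a higher mean was not counted. The labels and Postn mRNA chose these classes, so this contrast is a description.

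Among the myofibroblast genes 2 were past the rule, and no collagen was, where 2.09% of all genes were higher and 0.569% lower, so that a count of 0 in a list of this size says little. Of 14 genes that the study draws as myofibroblast genes, fibrillin Fbn1 (2.44) and Ctgf (2.42) were higher and the median difference was 0.30. Without the pair of cells that stood apart it was 0.06, and with TPM averaged before the log the median difference of myofibroblast genes of the study was 2.01, against 0.49 for all genes. Ctgf, a matricellular protein induced by TGF-beta, ranged from 0 to 12.96 (median 5.40) in activated and from 0 to 7.58 (median 1.41) in resident cells, with a mean of 4.44 ± 4.06 against 6.46 in Postn-traced cells. All 14 had a lower mean in activated Postn-negative than in Postn-traced cells, with a median difference of -3.42 beside -0.28 for all genes. The list is the study's own and holds Postn, by which the classes were chosen, so this contrast too is a description. The share of all genes with a lower mean was not counted. The Postn-traced cells had more detected genes, with a median of 3643 against 2342. Of 16 collagens 0 were higher and 0 lower, and their median difference was -0.01, but -0.29 without the resident cell with myeloid markers, -0.34 without the pair of cells that stood apart and -0.23 against the Tcf21-traced cells. Col1a1, chosen after its values were seen, averaged 6.55 ± 2.08 in activated, 7.25 ± 2.66 in resident and 10.45 in Postn-traced cells.

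Some secreted matrix genes were past the rule one by one, where 2.09% of all genes were higher and 0.569% lower. Among 25 matrix proteases and inhibitors, the aggrecanase Adamts5 (2.82), Mmp23 (2.24) and the sheddase Adam10 (2.04) were higher. Adamts5 was 2.88 higher than in Tcf21-traced cells also, while Mmp23 was at -0.11 there. Of 30 elastic fibre and cross-linking genes Pcolce2 (2.83), Mfap5 (2.45) and Fbn1 were higher and Emilin1 (-2.43) was lower, with a median of 0.17. None of these 4 was past the size of 2 against the Tcf21-traced cells, where Pcolce2 was at -0.77, Mfap5 at 0.62, Fbn1 at 0.15 and Emilin1 at -0.54. Osteoglycin (Ogn, 2.33) was the 1 gene higher among 23 proteoglycans and matricellular genes (median 0.33), and nidogen (Nid1, 2.03) among 16 basement membrane genes (median -0.26). Against the Tcf21-traced cells Ogn differed by 0.09 and Nid1 by -0.15, and the median of the basement membrane list was 0.19. Without the pair of cells that stood apart the medians of the last 3 lists were -0.02, -0.14 and -0.63.

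Growth factor and complement genes gave single members as well, beside the 2.09% and 0.569% of all genes. Igfbp6, which binds insulin-like growth factors, was at 7.59 ± 3.88 and 4.22 ± 4.70, and was the 1 higher gene of 27 growth factors and receptors (median 0.07). In 24 CCN family and TGF-beta signalling genes, Ctgf and Cyr61 were higher, none was lower and the median was 0.57. C7, a component of the membrane attack complex, was the 1 higher gene of 18 complement genes (median 0.17). It was detected in 12 of 24 activated cells (50%, 29.1% to 70.9%), 1 of 12 resident and 2 of 17 Tcf21-traced resident cells, and in 1 of 27 Postn-traced cells, with means of 4.0 ± 3.98, 0.41 ± 1.41, 1.23 and 0.27. Of 20 chemokines and cytokines only Ccl19 was past the rule (median -0.36). Of 19 cytokine receptors and NF-kB pathway genes Stat3 (2.21) was higher and Il11ra1 lower (median 0.42, and -0.03 without the pair of cells that stood apart), but Stat3 was at -0.98 against the Tcf21-traced cells. Of 9 Wnt ligands and modulators none was past the rule (median -0.17). Against the Tcf21-traced cells the median of the growth factors and receptors was -0.12 and that of the chemokines and cytokines 0.13, so that both changed sign.

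Metabolic and housekeeping lists showed raised medians that were smaller against the Tcf21-traced cells. Their counts stand beside the 2.09% of all genes that were higher and the 0.569% that were lower. Of 31 oxidative phosphorylation genes Ndufa4 (3.92) and Uqcrq (3.70) were higher and the median difference was 0.85, but 0.10 against the Tcf21-traced cells, where Ndufa4 was at -1.28. Of 26 proteasome genes Psmb6 (2.74), Psma2 (2.60), Psmc2 (2.53) and Psmb2 (2.23) were higher and the interferon-inducible activator subunit Psme1 (-2.05) was lower, with medians of 0.86 and 0.12. With TPM averaged before the log, the median difference of oxidative phosphorylation genes was -0.01 and the median difference of proteasome genes was -0.18. Of 25 glycolysis and hypoxia genes Ldha was the 1 past the rule (median 0.29, and -0.08 against the Tcf21-traced cells), and of 31 ribosomal protein genes Rpl19 (2.22, median 0.41), whose reads may be shared with its pseudogenes.

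Among 33 detoxification and antioxidant genes, Mt2, Mgst1 (3.83), the peroxiredoxin Prdx6 (3.58) and the glutathione transferase Gstp1 (3.05) were higher, and the retinaldehyde dehydrogenase Aldh1a1 (-2.29) and thioredoxin Txn1 (-2.08) were lower, where 2.09% and 0.569% of all genes were. Their median difference was 0.05, and -0.07 without the pair of cells that stood apart. Against the Tcf21-traced cells Mt2 and Prdx6 (2.16) stayed more than 2 higher, and Gstp1 was at 1.47, Mgst1 at 1.09, Aldh1a1 at -0.02 and Txn1 at -0.57. Of 31 actin cytoskeleton genes Tpm1, the myosin light chain Myl12a (3.02) and the focal adhesion protein Zyx (2.92) were higher (median 0.40, and 0.17 without the pair). Of 22 circadian and glucocorticoid-responsive genes, Errfi1 (3.52), a feedback inhibitor of the EGF receptor, and Klf9 (2.79) were higher (median 0.15, and 0.06 without the pair). None of 19 cell cycle genes was past the rule (median 0.14), and of 34 transcription factors of mesenchymal transition or of fibroblasts only the fibroblast factor Tcf21 was (median 0.17, and -0.05 without the pair).

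**Figure D5:**
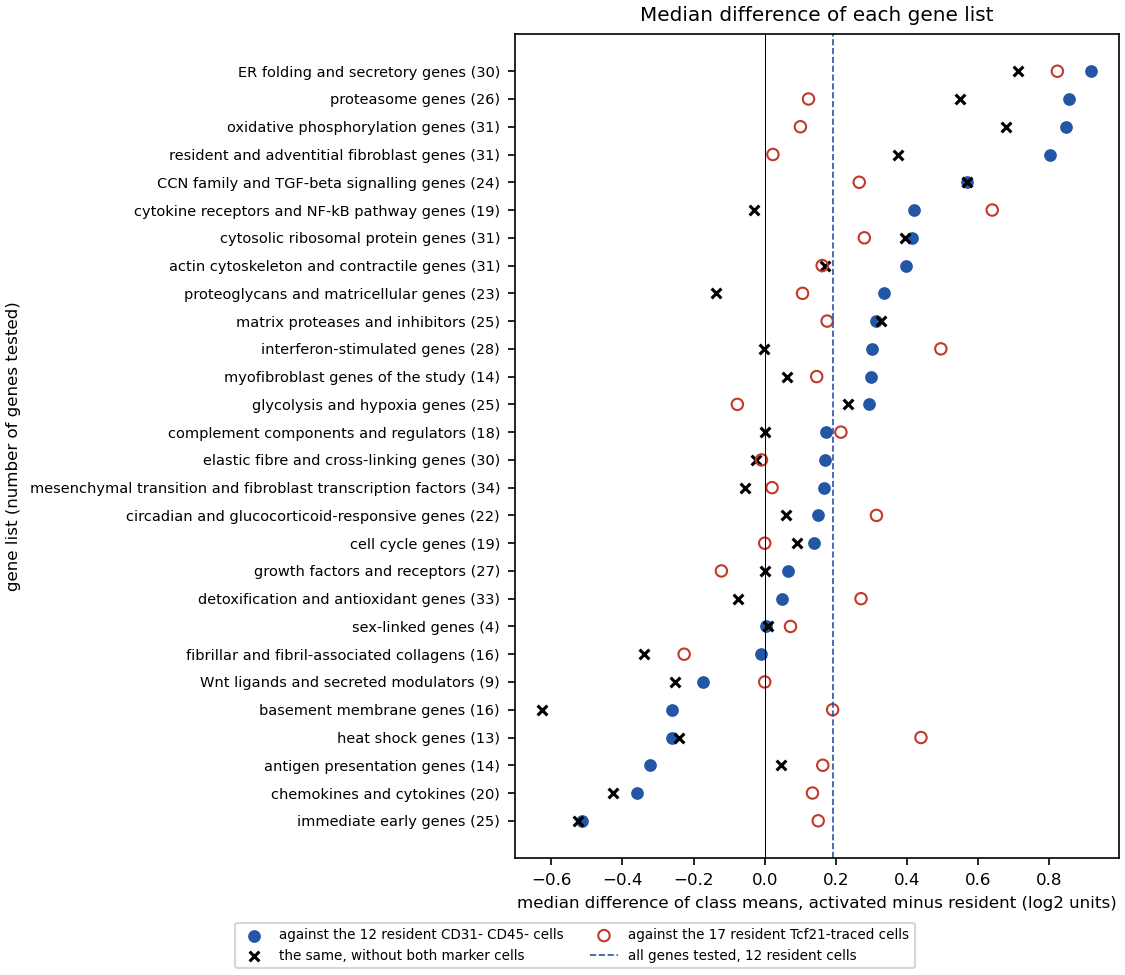
Median difference of class means in log2 units (horizontal axis) for each of 28 gene lists (vertical axis, number of genes tested in brackets) against the 12 resident cells (filled circles), the same without the pair of cells that stood apart (crosses) and against the 17 Tcf21-traced resident cells (open circles). The dashed line is the 0.19 of all genes, and the ER list is highest on these 3 measures, at 0.92, 0.71 and 0.82. Without the pair of cells the oxidative phosphorylation list was close to it, at 0.68. With TPM averaged before the log, which is not drawn, the ER list lay below all genes.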

How the data were processed

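The authors deposited log2 values of TPM plus 1 for 17171 genes in 185 single cells. The submitters' processing notes name Bowtie 1.0.0, eXpress 1.5.1 and mm10. After conversion to TPM, totals ranged from 999257 to 1000000 in the cells, and depth cannot be read from them. A further 3 columns of the table hold no sample and were not used. No 2 cells held identical values.

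Class means, SDs and shares of cells were computed with Python 3.11.15, NumPy 2.4.6, pandas 2.3.3 and SciPy 1.17.1, and the rule was tested on simulated data. These were normal values without negatives, with large known shifts in abundant genes. They do not copy how zeros are spread over single cells, so they give no error rate for these data. Genes named are the 15 largest past the rule in each direction, up to 6 members of each list past it, the most abundant marker of each cell type, and Postn, Pecam1 and Ptprc. A marker gene under this rule is not reported here. Other genes were chosen after their values were seen. Members and lists were chosen with earlier results of these data known, and lists were not matched on expression. Promoter windows come from RefSeq, GRCm38.p6.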

Additional observations from a re-analysis of the deposited data

How the results depend on the processing

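Without a test, each count depends on the scale and the rule. Against 246 higher and 67 lower genes, log2 of the mean TPM gave 122 higher, medians over cells gave 558 and 207, a pseudocount of 0.1 gave 408 and 140, and a pseudocount of 5 gave 117 and 20. With at least 75% of cells 101 and 26 genes passed, with a size of 1 log2 unit 586 and 273, and with a size of 3 units 72 and 14. The 17 resident Tcf21-traced cells as control gave 146 higher genes, and all 29 resident Postn-negative cells gave 154 and 21. The range of gene number that both classes span, chosen after seeing the data, gave 159 and 179. A narrower range planned earlier left 1 cell in each class and was not run. The causes were not tested.

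Among the 76 named genes past the rule, the direction turned on log2 of the mean TPM for Psma2 (-0.28) and Psmb2 (-0.34). Against the 17 Tcf21-traced cells it turned for Atf4 (1.45), Mmp23 (-0.11), Ndufa4 (-1.28), Nid1 (-0.15), Pcolce2 (-0.77), Psmb2 (-0.87), Stat3 (-0.98) and Tubb4b (0.14). Centring each cell turned none of them. Which mouse a cell came from and how many reads it had are not given per cell, and a value of 0 in a cell can be a transcript that was lost in capture.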

Other observations

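Ly6a was detected in 21 of 24 activated Postn-negative cells and Ly6c1 in 14. All 14 cells with Ly6c1 above 5 TPM also had Ly6a, which 7 further cells had without Ly6c1, and all 14 had Pi16, a marker of adventitial fibroblasts. Pi16 was detected in 18 of 24 activated cells, each of which had Ly6a, and in 3 activated cells neither Ly6a nor Ly6c1 was detected. Among the 12 resident cells Pi16 was detected in 9, of which 3 had Ly6a and 1 had Ly6c1. In the 17 Tcf21-traced resident cells 12 of 14 Pi16 cells had Ly6a. The genes were chosen after their values were seen.

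The pair of cells that stood apart had genes above 5 TPM that passed this level in none of the other 35 cells. The activated cell with epicardial markers had 349 such genes, led by the acute-phase gene Saa3 (13.22), Clu (10.85), the protease inhibitor Slpi (9.93) the keratin Krt19 (9.83) and Agr2 (9.74). The resident cell with myeloid markers had 181, led by the MHC class II genes H2-Aa (14.54), H2-Eb1 (13.57) and H2-Ab1 (13.53), the complement gene C1qb (13.28) and Ctss (13.10). Among the other 34 cells of both classes the median was 59 and the highest 89.

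Xist, which is expressed from the inactive X chromosome of females, was at 0 in all 36 cells. The Y-linked Ddx3y was detected in 15 of 24 activated and 6 of 12 resident cells. Of the 4 sex-linked genes tested none was past the rule, and their median difference was 0.0049.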
